A study of Mus musculus with 24 samples.

Results

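Hippocampal microglia of control male mice were compared at 9 and 6 months of age, by bulk RNA sequencing of sorted cells. The comparison uses 8 of the 24 libraries of a series on the APPswe/PSEN1dE9 amyloid model: all 4 libraries labelled wt at 9 months (replicates 1, 2_4, 3 and 5) against all 4 labelled wt at 6 months (replicates 1 to 4). They were chosen by genotype and age alone, and the other groups are wt at 4 months and transgenic (tg) mice at all 3 ages. These wt mice are the controls of a transgenic line, and the background strain, littermate status and housing are not given in the labels. The sorted gate was negative for the dead-cell dye PI, positive for the nuclear dye DRAQ5, high for CD11b, intermediate for CD45 and negative for CD49d. The labels do not say whether a replicate is 1 animal or what the name 2_4 stands for, so a p-value here reflects how much these libraries vary, which may be partly technical.

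Microglia are the resident macrophages of the brain. In the healthy adult they hold a homeostatic programme (P2ry12, Tmem119, Cx3cr1) that depends on TGF-beta and CSF1 receptor signalling. Near amyloid plaques, and in part with age, they can take up a disease-associated (DAM) programme with genes of lipid handling and lysosomes, or an interferon-response programme. A comparison of control animals of different ages shows how far these programmes differ without the amyloid transgene.

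The 8 libraries held 8941718 to 14198506 counts and 14129 to 17279 genes with a count. Levels are CPM, counts scaled to a common library total with TMM factors. Each ± value is a group mean with its SD (n = 4), and log2 fold changes are 9 minus 6 months. A gene was tested if it reached a CPM of 1 in at least 4 of the 8 libraries, which 13022 genes did. On each of the first 3 principal components 1 library lay farthest from 0 before any gene was considered. Replicate 3 at 6 months lay at 131.4 on the first principal component (25.4% of the variance), where the other 7 lay between -27.2 and 4.1, and it had the fewest genes. Replicate 5 at 9 months lay at 106.9 on the second component, where the others lay between -27.3 and -0.2. Replicate 3 at 6 months and replicate 5 at 9 months had summed choroid plexus transcripts of 2.66 and 7.24 CPM. The other 6 libraries were at 730 to 3532 CPM. Replicate 1 at 9 months lay at 86.2 on the third component (14.2% of the variance). Replicate 2 at 6 months lay on the other side of it, at -56.1, and the remaining libraries between -26.8 and 6.3. Replicate 1 at 9 months also stood apart for DAM genes, as described below. The homeostatic markers were high in all 8 libraries, as the cell type label says.

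No gene passed the test between the ages. The edgeR quasi-likelihood test called 0 of 13022 genes at an adjusted p under 0.05 (0%), and the adjusted p was 1 for every gene. At an unadjusted p under 0.05 there were 424 genes, 230 higher at 9 months (1.77% of those tested) and 194 lower (1.49%). In 165 genes (1.27%) all 9-month libraries lay above all 6-month libraries, and in 182 (1.4%) all lay below. Of all tested genes 49.8% had a log2 fold change above 0. Without replicate 1 at 9 months edgeR called 0 genes (0%, with 414 at an unadjusted p under 0.05). Without replicate 3 at 6 months it also called 0 (0%, with 513), and limma-voom with quality weights called 0 (659). DESeq2 called 10 genes, 7 higher and 3 lower, with 566 at an unadjusted p under 0.05. Everything that follows therefore describes levels and their spread, and no direction below has passed the edgeR test.

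**Figure D1:**
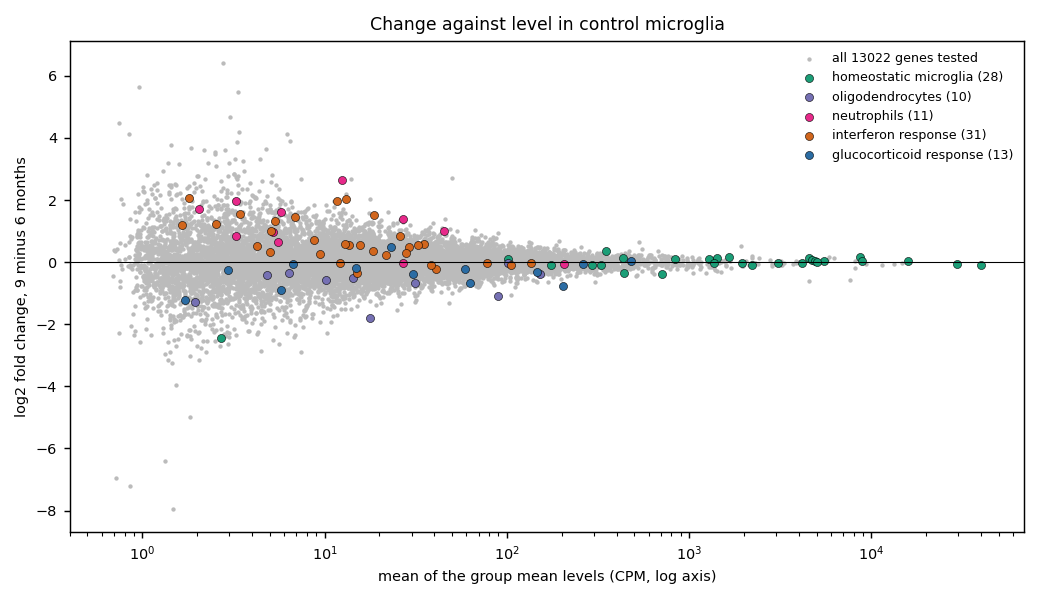
Each grey point is 1 of the 13022 tested genes, with the mean of the 2 group means in CPM on a log x axis and the log2 fold change (9 minus 6 months) on the y axis. Coloured points are members of 5 gene lists. Homeostatic genes lie at the right near 0, except 1 low-level member, Egr1, at -2.45, and the 10 oligodendrocyte genes all lie below 0.

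The gene with the smallest p above a mean of 5 CPM in both groups was Dst, higher at 9 months. Dst (ENSMUSG00000026131), which encodes dystonin, a linker between cytoskeletal filaments, was at 66.9, 73.0, 49.0 and 56.4 CPM in replicates 1 to 4 at 6 months. At 9 months it was at 106, 127, 119 and 118 CPM in replicates 1, 2_4, 3 and 5. The groups did not overlap and the 9-month libraries lay close together (61.3 ± 10.7 against 117 ± 8.80 CPM; SD, n = 4). The log2 fold change of Dst was 0.94 with an SE of 0.17. DESeq2 called it at an adjusted p of 0.00191. Its level in the 4 controls of 4 months, which are not in the fit, was 28.9 to 73.3 CPM.

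Apc (ENSMUSG00000005871) encodes a scaffold that promotes beta-catenin breakdown and binds microtubules. Its 6-month libraries were at 29.8, 31.2, 31.0 and 19.9 CPM and its 9-month libraries at 70.1, 52.2, 60.9 and 58.7 CPM. Every 9-month library lay above every 6-month library, at a log2 fold change of 1.11 (SE 0.22). In the controls of 4 months Apc was at 25.4 to 35.7 CPM, so for these libraries the 9-month group is the high one of the 3 ages. DESeq2 called Apc at an adjusted p of 0.00898.

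Zfhx3 (ENSMUSG00000038872), a large zinc-finger homeobox transcription factor, was at 426, 337, 420 and 480 CPM at 6 months and at 615, 775, 635 and 587 CPM at 9 months. The groups did not overlap (log2 fold change 0.65, SE 0.14). The 4-month controls spanned 405 to 753 CPM and so reached into both groups. DESeq2 called Zfhx3 at an adjusted p of 0.012. Asap1, which encodes a GTPase-activating protein for Arf, was at 60.1 ± 12.4 CPM at 6 months and 101 ± 9.30 CPM at 9 months, with no overlap. Its 4-month controls, at 51.6 to 103.9 CPM, reached into both groups.

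The remaining higher genes had various roles, and in all of them the 9-month libraries lay above the 6-month libraries. Coq3, an enzyme of ubiquinone synthesis, was at 5.09 ± 1.26 and 16.1 ± 5.38 CPM. Slc35b3, a Golgi transporter of the sulfate donor PAPS, was at 18.0 ± 4.58 and 37.8 ± 4.77 CPM, and Cops7a, a subunit of the COP9 signalosome, at 64.0 ± 10.8 and 102 ± 5.47 CPM. In the 4-month controls Cops7a ran from 41.0 to 119 CPM and Slc35b3 from 8.53 to 37.0 CPM, each range wider than the difference between the later means. Coq3 was at 8.26 to 15.5 CPM there, which lies above the 6-month range and overlaps the 9-month range. The gene model Gm13479 was at 0 to 0.447 CPM at 6 months and at 14.7, 2.77, 3.65 and 2.30 CPM at 9 months. Its log2 fold change of 4.69 was 3.68 without replicate 1 at 9 months. Gm13479 passed the filter on low values only through the 9-month libraries and so had to differ, and these values support nothing further.

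A few low-level genes were close to 0 in all libraries of an age. Tmem38a (ENSMUSG00000031791), which encodes the intracellular cation channel TRIC-A, had 1, 0, 1 and 0 counts at 6 months and 39, 49, 120 and 56 counts at 9 months. Scaled for library size, the ratio of the summed counts was 105 (95% exact interval 28.9 to 875, counting error only). In the 4-month controls it ran from 0.347 to 8.63 CPM, which reaches into the 9-month range. Gdap1l1, picked once its values were known, had 36, 29, 28 and 17 counts at 6 months and 0 in all 4 libraries at 9 months, where it was at least 45.9-fold lower against a floor of 3 counts over the group. G0s2, an inhibitor of the lipase ATGL and picked in the same way, had 12, 13, 50 and 25 counts at 6 months and 0, 0, 1 and 0 at 9 months (ratio 125, interval 22 to 4990). The zinc-finger gene Zfp78, also picked once its values were known, was at 0, 0.558, 0 and 0 CPM at 6 months and 6.04, 2.02, 5.71 and 12.5 CPM at 9 months. All 4 of these genes are among the 10 that DESeq2 called. Each of them passed the filter on low values only through the age where it is high and so had to differ, and their calls support nothing further.

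**Figure D2:**
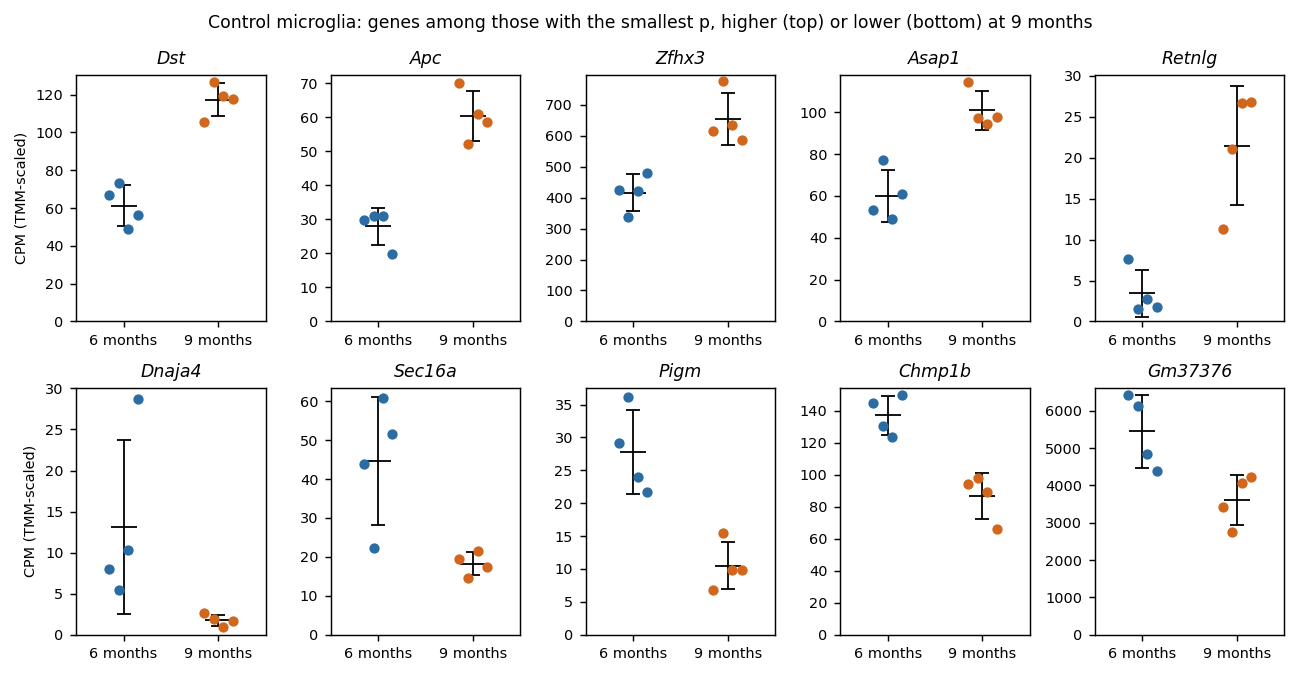
Levels in CPM (y axis, starting at 0) of 10 genes at 6 and 9 months (x axis), with 1 point a library, a horizontal bar for the mean and whiskers for the SD (n = 4). In the top row every 9-month library lies above every 6-month library and in the bottom row below, while Dnaja4 has 1 library at 28.7 CPM at 6 months and Retnlg 1 at 11.3 CPM at 9 months that lie away from their groups.

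The genes with the smallest p that were lower at 9 months were led by a heat-shock cochaperone. Dnaja4 (ENSMUSG00000032285), a DNAJ partner of HSP70 that heat shock factor is known to induce, was at 8.02, 5.47, 10.3 and 28.7 CPM at 6 months. At 9 months it was at 2.62, 1.87, 0.894 and 1.65 CPM. The groups did not overlap, and replicate 4 was the highest at 6 months. Its log2 fold change was -2.90 (SE 0.66), with -3.15 to -2.17 as single libraries were left out, and DESeq2 called it at an adjusted p of 0.0291. In the 4-month controls Dnaja4 was at 3.34 to 6.06 CPM.

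Of the 14 heat-shock genes listed, 12 were tested and 4 were higher at 9 months, with a median log2 fold change of -0.13 (all genes: -0.0018). The median was -0.30 without replicate 1 at 9 months and -0.19 without replicate 3 at 6 months. Dnajb1, the main HSP40 partner of inducible HSP70, was at 246, 224, 184 and 163 CPM at 6 months and at 125, 166, 123 and 108 CPM at 9 months. Replicate 2_4 at 9 months reached just above the lowest 6-month library, so the groups overlapped (log2 fold change -0.65, SE 0.18). Dnajb4 was at 44.8 ± 9.42 and 33.5 ± 5.56 CPM. Dnaja1, picked once its values were known, was at 47.0 ± 12.9 and 35.3 ± 7.15 CPM. The inducible HSP70 gene Hspa1a, picked likewise, was at 20.3, 14.1, 13 and 2.01 CPM at 6 months and at 0, 6.50, 4.88 and 0 CPM at 9 months. Hsf1, the gene of heat shock factor itself, lay the other way, at 60.9, 35.1, 26.9 and 45.5 CPM at 6 months and 66.6, 52.0, 46.2 and 82.0 CPM at 9 months, which overlapped (log2 fold change 0.55, SE 0.29). Hspa1a is uncertain because its near-identical neighbour Hspa1b can share its reads. In the 4-month controls Dnajb1 was at 125.8 to 282.3 CPM and Hspa1a at 1.555 to 35.7 CPM, which overlaps both later ages. Dnaja1 was at 43.2 to 71.6 CPM there, which overlaps the 6-month range only.

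Heat shock factor binds inverted repeats of the letters GAA. The sequences upstream of Dnaja4 and Hspa1a are shown because these genes had the most negative log2 fold changes (-2.90 and -2.10) of the chaperone genes described, with each match to GAANNTTC or TTCNNGAA in capitals. Both motifs read the same on either strand. The sequences are from RefSeq on GRCm38.p6 and run from 130 to 45 bases before an annotated start site. They are at chr9:54699429-54699514 (plus strand, the downstream of 2 start sites of Dnaja4) and chr17:34972201-34972286 (minus strand, Hspa1a).
Dnaja4: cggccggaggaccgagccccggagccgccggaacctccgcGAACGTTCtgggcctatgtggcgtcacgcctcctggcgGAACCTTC
Hspa1a: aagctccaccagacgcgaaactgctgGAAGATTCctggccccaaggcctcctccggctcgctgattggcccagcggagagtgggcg
Dnaja4 held 2 matches, beginning 90 and 52 bases before the start, and Hspa1a 1 match, 104 bases before it. All 250 bases before each start were searched, and the stretch printed was set to hold the matches. Of 32851 start sites in the table, 12.8% held either motif in those 250 bases. The other start site of Dnaja4 and both of Dnajb1 held none. The genes were picked for their values, so the share is background only, and binding was not measured.

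Other lower genes followed, and in each all 9-month libraries lay below all 6-month libraries. Sec16a, which organises the exit sites of the endoplasmic reticulum, was at 43.9, 22.2, 60.8 and 51.6 CPM at 6 months and 19.5, 14.7, 21.5 and 17.3 CPM at 9 months. Replicate 2 at 6 months lay near the 9-month libraries. Pigm, a mannosyltransferase of GPI anchor synthesis, was at 27.7 ± 6.39 and 10.5 ± 3.63 CPM. Chmp1b, an ESCRT-III subunit, was at 137 ± 12.3 and 86.9 ± 14.4 CPM (log2 fold change -0.66, SE 0.17). The other protein-coding genes were Macir, a regulator of macrophage immune metabolism (103 ± 14.5 and 64.9 ± 8.38 CPM), the aminopeptidase gene Xpnpep1 (88.2 ± 11.7 and 54.0 ± 8.51 CPM), the cyclophilin-type isomerase gene Ppwd1 (15.0 ± 4.93 and 3.93 ± 2.37 CPM) and the zinc-finger gene Zfp955b (36.0 ± 6.54 and 18.2 ± 2.1 CPM). The gene model Gm50169 was at 49.2 ± 4.64 and 27.5 ± 5.71 CPM. In the 4-month controls Sec16a ran from 17.3 to 60.9 CPM, Zfp955b from 7.48 to 42.7 CPM and Macir from 62.6 to 140.5 CPM. Each of these ranges overlaps both later ages. Ppwd1 was at 3.38 to 9.22 CPM there, which lies below the 6-month range and overlaps the 9-month range. Gm50169 was at 35.9 to 48.7 CPM there, which overlaps the 6-month range only.

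The most abundant transcript of the lower group was Gm37376, at 6428, 6120, 4851 and 4393 CPM at 6 months and 3432, 2749, 4051 and 4230 CPM at 9 months. In GENCODE M21 it lies within Malat1 on the opposite strand, and the counting setting for strand is not given, so reads of this gene and of Malat1 cannot be told apart. Malat1, an abundant nuclear long noncoding RNA picked once its values were known, was at 10970, 10160, 8258 and 7232 CPM at 6 months and at 5946, 4629, 6610 and 7271 CPM at 9 months. Replicate 4 at 6 months was level with replicate 5 at 9 months, so the groups of Malat1 overlapped (log2 fold change -0.58, SE 0.16). In the 4-month controls Malat1 was at 3869 to 7881 CPM, and 3 of the 6-month libraries lay above all of them.

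The homeostatic genes had no common direction between the ages. All 28 listed genes were tested, 14 were higher and 14 lower at 9 months, and their median log2 fold change was 0.01. P2ry12, the purinergic receptor that guides microglial processes, was at 14370, 14950, 14650 and 18780 CPM at 6 months and 15260, 18090, 14310 and 17360 CPM at 9 months. Tmem119 was at 5449 ± 520 and 5605 ± 798 CPM. The fractalkine receptor gene Cx3cr1 was at 8080 ± 981 and 9133 ± 920 CPM. The log2 fold changes of P2ry12, Tmem119 and Cx3cr1 were 0.05, 0.04 and 0.18, each with an SE of 0.11.

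Within that list the members with the smallest p went both ways. The phagocytic receptor kinase gene Mertk was at 308 ± 73.7 and 391 ± 39.3 CPM, with a log2 fold change of 0.34 that was 0.20 without replicate 3 at 6 months, where it was lowest (204 CPM). The leukotriene C4 synthase gene Ltc4s was highest in that same library (1193 CPM, others 615 to 727 at 6 months), and its log2 fold change of -0.38 was -0.12 without it. The immediate early gene Egr1 was at 9.05, 0.894, 4.05 and 4.23 CPM at 6 months and 1.31, 0.598, 0.206 and 1.21 CPM at 9 months. Without replicate 3 at 6 months 22 of the 28 homeostatic genes were higher, at a median of 0.06.

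The DAM genes separated 1 library rather than an age. Cst7 (ENSMUSG00000068129), the gene of the protease inhibitor cystatin F, was at 14.3, 12.5, 13.6 and 12.4 CPM at 6 months and at 292, 15.9, 30.1 and 11.5 CPM at 9 months. Replicate 1 at 9 months was far above the other 7 libraries, which lay within a narrow band. The log2 fold change of 2.73 (SE 0.94) was 0.54 without that library. The beta-glucan receptor gene Clec7a was at 24.4, 33.0, 14.6 and 29.2 CPM at 6 months and 164, 44, 34.5 and 22.9 CPM at 9 months. Its log2 fold change was 1.39 with all libraries and 0.42 without replicate 1.

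Secreted factors of the programme had the same shape. The growth factor gene Csf1 was at 12.5 ± 6.31 CPM at 6 months and at 57.4, 17.1, 20.6 and 14.6 CPM at 9 months (log2 fold change 1.13, and 0.48 without replicate 1). Igf1 was at 1.23, 3.46, 0 and 0 CPM at 6 months and 21.0, 1.12, 0 and 0 CPM at 9 months, so its log2 fold change of 2.22 was -1.59 without replicate 1. The lipid carrier gene Apoe was at 2167, 1856, 1110 and 1195 CPM at 6 months and 3619, 2168, 1935 and 1273 CPM at 9 months (log2 fold change 0.51, and 0.18 without replicate 1). Lipoprotein lipase (Lpl) was at 58.9 CPM in replicate 1 and at 6.14 to 40.8 CPM in the other 7, with log2 fold changes of 0.52 and -0.03. Spp1, the gene of osteopontin, had another pattern. Replicates 1, 3 and 5 at 9 months were at 29.8, 25.5 and 22.3 CPM and replicate 2_4 at 1.12 CPM, against 4.58 to 14.2 CPM at 6 months. The receptor kinase gene Axl was highest in replicate 3 at 6 months (41.0 CPM), and its log2 fold change of -0.43 was 0.57 without that library.

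Beside the transgenic libraries of the series, replicate 1 at 9 months lay between the tg groups for several DAM genes. Cst7 was at 131 to 197 CPM in the 4 tg libraries of 6 months and at 395 to 516 CPM in 3 tg libraries of 9 months (the remaining library of that group has very few counts and was not used here). Clec7a was at 62.7 to 101 and 200 to 213 CPM in these groups, and Apoe at 1874 to 3158 and 5028 to 5948 CPM. For Igf1 replicate 1 lay within the 6-month tg range of 9.04 to 23.8 CPM. App was at 115 CPM in that library and 138 to 161 CPM in the other 9-month controls, against 160 to 170 CPM in tg of 9 months. Prnp, whose promoter drives the transgenes of this line, was at 10.9 CPM in it, 9.00 to 15.8 CPM in the other 9-month controls and 20.7 to 30.7 CPM in tg of 9 months. At 6 months Prnp did not separate the genotypes, with controls at 0 to 30.3 CPM and tg at 9.57 to 38.9 CPM, and App was higher in replicate 3 of the controls (276 CPM) than in any of these tg libraries. Whether the counting assigns transgene reads to these genes is not given, and their levels do not check the genotype label of a single library.

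As lists, DAM stage 1 had 7 of 9 tested genes higher at 9 months (median 0.14, and 0.05 without replicate 1) and DAM stage 2 had 19 of 26 of its 30 genes higher (median 0.13). Without replicate 1 at 9 months 10 of those 26 were higher, at a median of -0.04. Without replicate 3 at 6 months 24 were higher, at a median of 0.21. The stage 1 gene Lyz2, lysozyme, was at 651, 505, 325 and 384 CPM at 6 months and 692, 763, 587 and 479 CPM at 9 months, which overlapped. The lysosomal protease gene Ctsd was at 5928 ± 434 and 6535 ± 471 CPM, and the lipid-sensing receptor gene Trem2 at 2272 ± 388 and 2155 ± 242 CPM. The lysosome list was even, with 15 of 28 genes higher and a median of 0.01 (-0.01 without replicate 1 at 9 months).

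**Figure D3:**
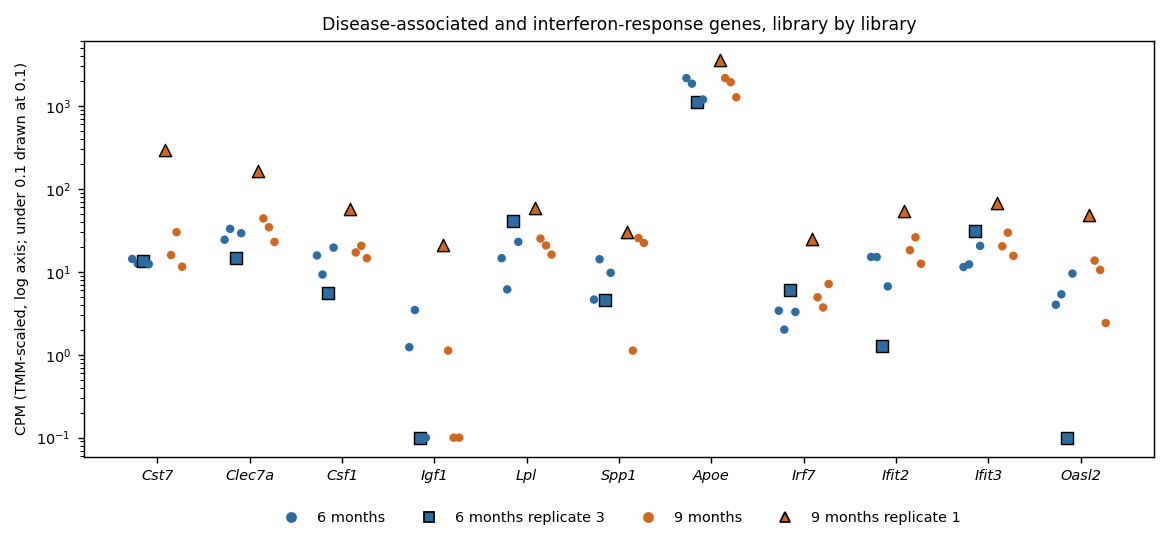
Levels of 11 DAM and interferon-response genes in each of the 8 libraries, in CPM on a log y axis (levels under 0.1 CPM are drawn at 0.1). The triangle, replicate 1 at 9 months, is the highest of the 8 points for each of these genes, and the square is replicate 3 at 6 months.

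Interferon-response genes were mostly higher at 9 months, and again highest in replicate 1. Of 35 listed genes 31 were tested and 24 were higher (49.8% of all genes), at a median log2 fold change of 0.55, none with an unadjusted p under 0.05. Without replicate 1 at 9 months 21 of 31 were higher, at a median of 0.24. The summed level of the list was 651 to 730.5 CPM at 6 months. At 9 months replicates 1 and 3 were above that range, at 1067 and 935.7 CPM. Replicate 2_4 was within it (699.2 CPM) and replicate 5 below it (610.7 CPM). Ifit2, which binds foreign RNA, was at 15.1, 15.1, 1.28 and 6.67 CPM at 6 months and 53.6, 18.2, 26.1 and 12.5 CPM at 9 months. Its log2 fold change was 1.53 (SE 0.70), and 0.99 without replicate 1. The transcription factor gene Irf7 was at 3.69 ± 1.71 CPM at 6 months and at 24.7, 4.93, 3.72 and 7.13 CPM at 9 months (1.45, and 0.51 without replicate 1). The Ifit3 gene, whose reads may be shared with its copy Ifit3b, was at 68.0 CPM in replicate 1 and at 11.4 to 30.8 CPM in the other 7 libraries. Oasl2 was at 48.0 CPM in replicate 1 and at 0 to 13.7 CPM in the others.

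A guanylate-binding protein gene of the list had a different pattern. Gbp2 was at 4.32, 4.36, 0 and 12 CPM at 6 months and 19.2, 13.4, 19.7 and 32.0 CPM at 9 months. Its groups did not overlap, its highest library was replicate 5, and its log2 fold change of 2.03 (SE 0.94) was 2.08 without replicate 1. In the 4-month controls Gbp2 was at 9.15 to 20.6 CPM, which overlaps both later ages.

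Antigen presentation genes differed little in their median. Of 15 MHC class I pathway genes 11 were tested and 9 were higher, at a median of 0.11. The peptide transporter gene Tap1 was at 17.4, 29.0, 21.9 and 18.7 CPM at 6 months and 42.2, 33.6, 36.3 and 47.1 CPM at 9 months, with no overlap. Its log2 fold change was 0.87 (SE 0.25), and 0.84 without replicate 1 and 0.88 without replicate 3 at 6 months. In the 4-month controls Tap1 was at 17.25 to 42.4 CPM, which overlaps both later ages. The heavy chain genes overlapped between the ages: H2-K1 was at 286 ± 28.9 and 297 ± 58.6 CPM and H2-D1 at 573 ± 26.6 and 644 ± 117 CPM. Of the class II genes H2-Ab1 was at 175 ± 64.9 and 231 ± 115 CPM and the invariant chain gene Cd74 at 491 ± 273 and 526 ± 239 CPM. Both were low in the libraries that lacked choroid plexus transcripts, with Cd74 at 145 CPM in replicate 3 at 6 months and 201 CPM in replicate 5 at 9 months against 431 to 788 CPM in the other 6.

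Genes of the glucocorticoid response were mostly lower at 9 months. Of 15 listed, 13 were tested and 2 were higher, at a median of -0.25, which was -0.33 without replicate 1 at 9 months and -0.32 without replicate 3 at 6 months. Tsc22d3, the gene of the glucocorticoid-induced leucine zipper GILZ, was at 352, 235, 287 and 151 CPM at 6 months and 157, 172, 163 and 105 CPM at 9 months. Only replicate 4 at 6 months reached into the 9-month range, and the log2 fold change was -0.78 (SE 0.25). The metallothionein gene Mt1 was at 86.5, 58.9, 87.5 and 73.3 CPM at 6 months and 39.4, 38.9, 77.5 and 38.2 CPM at 9 months, with replicate 3 at 9 months among the 6-month values. Of the 17 tested immediate early genes 8 were higher (10 without replicate 1 at 9 months), and Klf6 was at 341 ± 26.4 and 274 ± 34.1 CPM with no overlap (log2 fold change -0.31, SE 0.13).

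Signalling, inflammatory and disease-risk genes differed gene by gene. In the TGF-beta list 10 of 16 tested genes were higher, at a median of 0.11 (0.07 without replicate 1 at 9 months). The SMAD corepressor gene Ski was at 138, 139, 213 and 104 CPM at 6 months and 188, 213, 283 and 273 CPM at 9 months, and replicate 3 at 6 months was level with replicate 2_4 at 9 months. Without that 6-month library its log2 fold change moved from 0.69 (SE 0.23) to 0.92. Its relative Skil was at 160 ± 16.0 and 185 ± 18.3 CPM and Smad3 at 50.8 ± 13.5 and 65.3 ± 12.9 CPM. In the inflammatory list 11 of 20 were higher, at a median of 0.02, but 7 (median -0.07) without replicate 1 at 9 months and 9 (median -0.10) without replicate 3 at 6 months. The lipopolysaccharide coreceptor gene Cd14 was at 1397, 1436, 1789 and 1640 CPM at 6 months and 1348, 1300, 1179 and 1284 CPM at 9 months, without overlap (log2 fold change -0.29, SE 0.10). The cytokine gene Il1a went the other way, at 128 ± 18.1 and 178 ± 38.5 CPM.

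Among 26 tested orthologues of Alzheimer risk genes 15 were higher, at a median of 0.03. The sorting receptor gene Sorl1, which steers APP through endosomes, was at 35.4, 35.7, 27.5 and 27.9 CPM at 6 months and 52.4, 41.1, 47.8 and 47.7 CPM at 9 months. The groups did not overlap (log2 fold change 0.58, SE 0.21), and the 4-month controls were lower still at the bottom of their range, at 5.72 to 32.2 CPM. The lipid transporter gene Abca7 was at 9.87, 5.58, 5.54 and 5.29 CPM at 6 months and 11.6, 14.8, 8.46 and 14.9 CPM at 9 months. Of 15 tested genes of microglial ageing and lipofuscin 10 were higher, at a median of 0.17 (0.06 without replicate 3 at 6 months), with log2 fold changes from -0.64 to 1.98. One of them, Cybb, the catalytic subunit of the phagocyte NADPH oxidase, was at 14.2 ± 10.7 and 30.9 ± 8.70 CPM. Of the sterol synthesis genes 9 of 18 were higher, at a median of 0.01, and 10 at 0.18 without replicate 3 at 6 months. The mevalonate kinase gene Mvk was at 0.206, 0.112, 0 and 2.01 CPM at 6 months and 3.43, 4.78, 3.99 and 9.33 CPM at 9 months, without overlap. Hsd17b7, of the same pathway, was at 0 to 1.54 CPM at 6 months and at 12.3, 4.41, 1.79 and 0 CPM at 9 months. The sterol dehydrogenase gene Nsdhl lay the other way, at 26.8 ± 3.35 and 15.6 ± 6.07 CPM. Mvk and Hsd17b7 passed the filter on low values mainly through 9-month libraries, so their differences support nothing further.

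Lists of the basic cell machinery depended on replicate 3 at 6 months. Of 53 tested genes of nuclear oxidative phosphorylation 10 were higher at 9 months, at a median of -0.15. Without that library 24 were higher, at a median of -0.01. Of 68 ribosomal protein genes 19 were higher, at a median of -0.16, and 36 without it, at 0.04. The summed level of the ribosomal protein genes was 4315 CPM in that library and 2818 to 3509 CPM in the other 7. Leaving out replicate 1 at 9 months gave medians of -0.15 and -0.16.

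**Figure D4:**
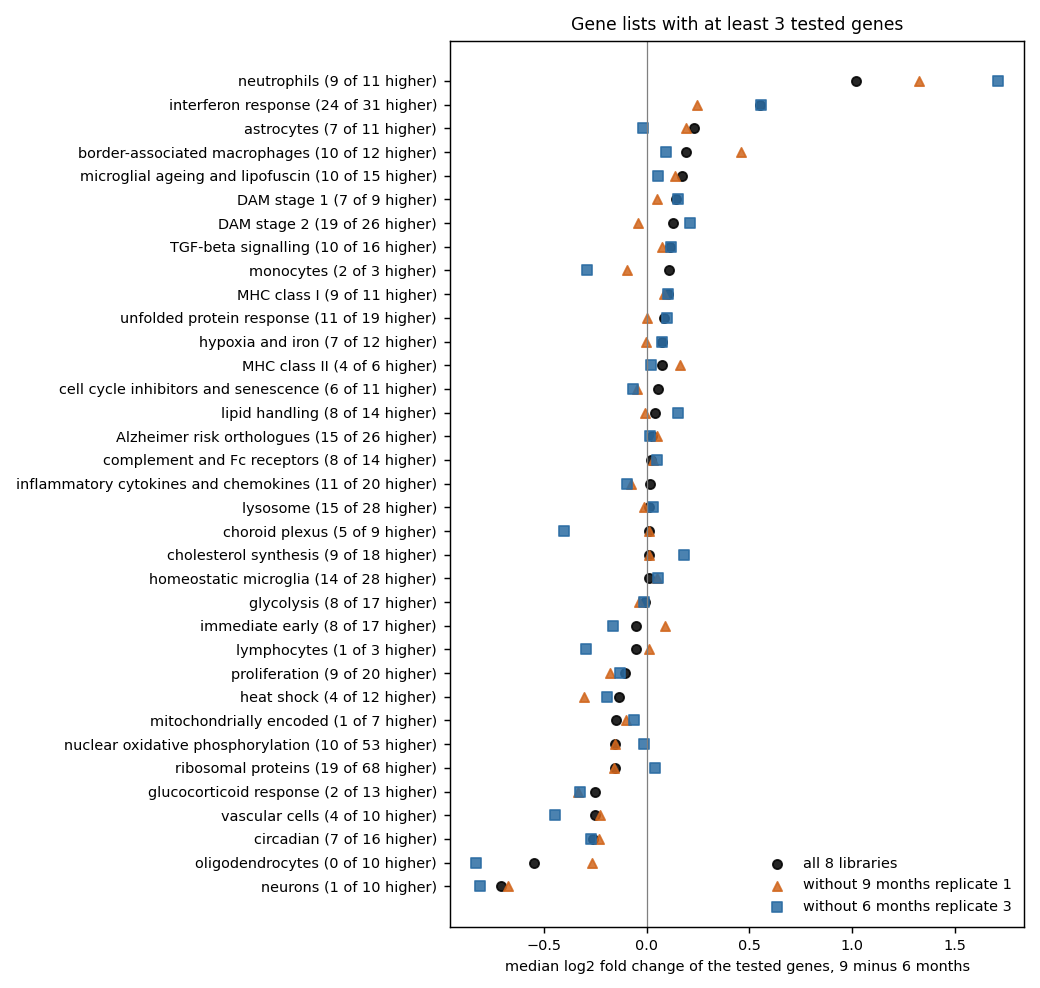
Median log2 fold change (x axis, 9 minus 6 months) of the tested genes of each list with at least 3 of them, with the number higher at 9 months in brackets. Circles are all 8 libraries, triangles leave out replicate 1 at 9 months and squares replicate 3 at 6 months. DAM stage 2 and interferon triangles lie left of their circles, and the squares of the ribosomal and oxidative phosphorylation lists lie near 0.

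Transcripts of other cell types differed between libraries, and their part in the results above was not tested. In bulk RNA fewer cells of a type and less RNA per cell cannot be told apart. Of 16 oligodendrocyte genes 10 were tested and 0 were higher at 9 months, at a median of -0.55. Without replicate 1 at 9 months the median was -0.27, with 1 of 10 higher, and without replicate 3 at 6 months it was -0.83. Myelin basic protein (Mbp) was at 138, 181, 42.0 and 124 CPM at 6 months and 54.9, 53.1, 44 and 75.5 CPM at 9 months. Replicate 3 at 6 months lay below all 9-month libraries, while the other 6-month libraries lay above them. Its log2 fold change was -1.09 (SE 0.38), and -1.37 without that library. Mobp was at 36.1, 47.4, 4.79 and 21.8 CPM and then 6.04, 8.29, 11.3 and 6.04 CPM, and Mag at 38.4 ± 16.2 and 24.3 ± 5.11 CPM. In the 4-month controls Mbp was at 11.2 to 53.6 CPM and Mobp at 3.03 to 7.57 CPM. Both ranges overlap the 9-month range, and the 6-month libraries other than replicate 3 lay above them. Mag was at 16.2 to 58.3 CPM at 4 months, which overlaps both later ages. The summed level of the list was 173 to 694 CPM at 6 months and 285 to 509 CPM at 9 months.

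Neutrophil genes lay the other way, with 9 of 11 tested higher and a median of 1.02. Without replicate 3 at 6 months 10 were higher, at a median of 1.71, and without replicate 1 at 9 months all 11, at 1.33. Retnlg (ENSMUSG00000022651), a resistin-like gene of neutrophils, was at 7.61, 1.56, 2.77 and 1.80 CPM at 6 months and 11.3, 21.1, 26.7 and 26.8 CPM at 9 months. Its groups did not overlap (log2 fold change 2.64, SE 0.58), DESeq2 called it at an adjusted p of 0.0182, and the 4-month controls were at 0 to 1.67 CPM. The calprotectin gene S100a9 was at 13.4, 6.14, 26.6 and 13 CPM at 6 months and 12.9, 52.9, 51.8 and 39.1 CPM at 9 months, and its partner S100a8 at 30 ± 21.2 and 60.6 ± 32.2 CPM. Replicate 1, the library with high DAM genes, had the lowest neutrophil sum of all 8 libraries (229 CPM, others 238 to 496). The listed granule genes Elane and Mpo had 0 counts in all 8 libraries, while the other 11 listed genes all passed the filter.

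Red-cell transcripts were found in replicates 2_4, 3 and 5 at 9 months. The globin gene Hbb-bs was at 1.23, 0.782, 0 and 0.635 CPM at 6 months and at 0, 11.7, 24.6 and 10.6 CPM at 9 months, and Hba-a1 at 0 to 1.34 CPM and at 0, 11, 29.1 and 8.56 CPM. Replicate 1 at 9 months had none of either. Both globins passed the filter mainly through these libraries, and their reads may be shared with the copies Hbb-bt and Hba-a2. Factor XIII A (F13a1), a marker of border-associated macrophages, was at 1.54, 10.5, 1.92 and 1.27 CPM at 6 months and 2.72, 51.5, 18.9 and 23.7 CPM at 9 months. Of that macrophage list 10 of 12 tested genes were higher, at a median of 0.19 (0.46 without replicate 1 at 9 months and 0.10 without replicate 3 at 6 months), with summed levels of 236 to 324 CPM at 6 months and 245 to 365 CPM at 9 months.

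Neuronal genes were mostly lower at 9 months, and vascular and astrocyte genes lay on both sides of 0. Of 20 neuronal genes 10 were tested and 1 was higher, at a median of -0.71, with summed levels of 48.5 to 107 CPM at 6 months and 32.9 to 67.9 CPM at 9 months. The endothelial adhesion gene Pecam1 was at 47.3, 38.6, 37.8 and 49.4 CPM at 6 months and 25.1, 15.7, 8.74 and 32.9 CPM at 9 months, without overlap, while 4 of 10 tested vascular genes were higher. Among these was the receptor gene Kdr, at 2.56 ± 3.04 and 8.63 ± 1.67 CPM, with overlap. The listed vascular genes Flt1, Cdh5, Tek and Vwf did not pass the filter. The glutamine synthetase gene Glul, listed for astrocytes, was at 696 ± 87.0 and 563 ± 13.2 CPM, with 7 of 11 astrocyte genes higher at a median of 0.23, and 5 of 11 at -0.02 without replicate 3 at 6 months. Of 23 lymphocyte genes 14, among them Cd3e, had 0 counts in all 8 libraries, and 3 were tested. Of the choroid plexus genes 5 of 9 tested were higher, at a median of 0.01, and 1 of 9 without replicate 3 at 6 months, at -0.40.

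**Figure D5:**
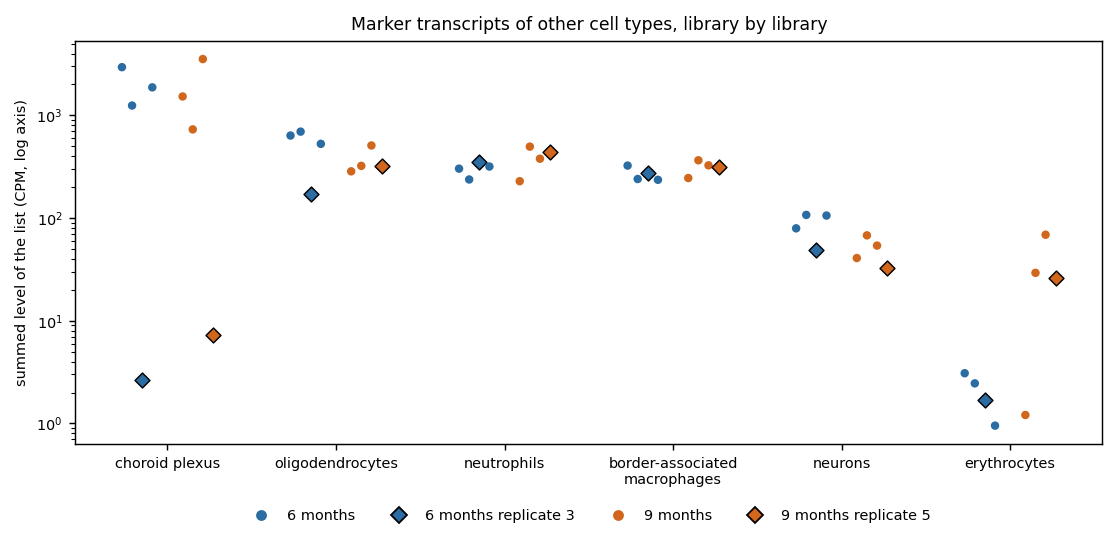
Summed level of the marker lists of 6 other cell types in each library, in CPM on a log y axis, with blue for 6 and orange for 9 months. The diamonds, replicate 3 at 6 months and replicate 5 at 9 months, are at 2.66 and 7.24 CPM for choroid plexus, far below the other libraries, and erythrocyte transcripts are at 26.2 to 68.8 CPM in 3 of the 9-month libraries and at most at 3.09 CPM in the other 5.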

How the data were processed

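Per the labels, libraries came from a NEBNext low-input kit and were read on a NovaSeq6000. The deposited values are raw counts per gene. The submitters' processing notes name HTSeq 0.11.0, TopHat, cutadapt 2.10, Picard 2.13.2, SAMtools 1.10 and FastQC 0.11.9, and the build GRCm39. For annotation release, strand setting and duplicate handling, the sources used here give nothing. The deposited table of all samples (36982 symbols) was used, and its counts equal those of the deposited library files summed by symbol.

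The 8 libraries were fitted in R 4.3.3 with edgeR 4.0.16 (TMM, robust quasi-likelihood test, 2 group means, Benjamini-Hochberg over 13022 genes), after a filter of 1 CPM in 4 libraries. The fit was tested on counts simulated with known changes, and how many of these it recovered is not reported here. DESeq2 1.42.0 and limma 3.58.1 were alternatives, with other scalings, filters, left-out libraries and a replicate block. The floor is 3 counts over a group, and intervals (95%) cover counting error only. Libraries of the same number were not treated as pairs.

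The members and lists were chosen with earlier results of these data known. Lists are described by counts and medians, with no test. Genes named are the 10 with the smallest p each way (a group mean of 5 CPM or more), members of the 36 lists among the 3 of smallest p, and a fixed set of microglial genes. For any other gene the text says that it was picked once its values were known. Roles of genes are background knowledge. Coordinates and sequences come from GRCm38.p6, another build than that of the counts, so they were matched by symbol only, for 3 genes. A few genes covered by the naming rule are not reported here.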

Additional observations from a re-analysis of the deposited data

Results flagged for a closer look

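In groups of 4 libraries, a library was singled out when its gap to the nearest other library, divided by the whole range, was above Dixon's 95% critical value. Of 240 groups of values examined, 23 held such a library. The limit's rate of about 1 in 20 holds for independent, normally distributed values. These are CPM of related genes and lists, so no excess over chance can be read from the number. Where the other libraries of the group were all at 0 (G0s2, Zfp78 and Hsd17b7), any count is singled out. Replicate 1 at 9 months was high for Cst7 (292 CPM, others 11.5 to 30.1), Clec7a (164 CPM), Csf1 (57.4 CPM), Igf1 (21.0 CPM), Irf7 (24.7 CPM) and Gm13479 (14.7 CPM). It was also high for the summed DAM stage 2 genes (15770 CPM, others at 9 months 12440 to 13000) and for cell cycle inhibitors and senescence genes (393.5 CPM). The 6-month libraries had DAM stage 2 sums of 11600 to 14830 CPM, which comes nearer to replicate 1.

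Replicate 3 at 6 months was high for App (276 CPM, others 83.2 to 102) and for summed MHC class I (6462 CPM), mitochondrially encoded (7447 CPM) and ribosomal protein genes (4315 CPM). Replicate 4 at 6 months was low for Apc (19.9 CPM) and Dnaja1 (27.9 CPM) and high for P2ry12 (18780 CPM) and Mvk (2.01 CPM). Replicate 1 at 6 months was high for Abca7 (9.87 CPM) and Hsd17b7 (1.54 CPM), and replicate 2 at 6 months for F13a1 (10.5 CPM) and Zfp78 (0.558 CPM). Replicate 3 at 9 months was high for Mt1 (77.5 CPM), the summed oligodendrocyte genes (508.9 CPM) and G0s2 (0.0688 CPM, which is 1 count).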

How the results depend on the processing

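The count of called genes was 0 in the edgeR fits with RLE factors, library totals, filterByExpr, no filter, a spread that is not robust, all 24 libraries, 23 libraries, both doubted libraries left out, and a limit of 0.01, and 0 by limma-voom. DESeq2 called 10. As single libraries were left out the count stayed at 0, with 342 to 521 genes at an unadjusted p under 0.05 (424 with all 8). Without a filter that number was 1167 of 22550 genes. The groups share only the numbers 1 and 3, whose libraries had correlated deviations of 0.017 and 0.028. A replicate block on these 4 libraries called 0 genes (337 at an unadjusted p under 0.05), and there the log2 fold change was -0.34 for App, 2.19 for Prnp, -0.19 for S100a8 and -0.052 for Tmem119, each on the other side of 0. This fit also uses fewer libraries. With limma-voom Axl was at 0.44, Prnp at 0.32 and Spp1 at -0.21. Without both replicate 1 at 9 months and replicate 3 at 6 months Cd74 was at -0.19, H2-K1 at -0.01, Igf1 at -2.00 and Trem2 at 0.025. As single libraries were left out, the log2 fold change ran from -0.17 to 0.57 for App, -1.39 to 0.57 for Axl, -0.20 to 0.42 for Cd74, -0.037 to 0.173 for H2-K1, -1.59 to 3.70 for Igf1, -0.033 to 1.06 for Lpl, -0.004 to 0.155 for P2ry12, -0.76 to 0.17 for Prnp, -0.062 to 0.109 for Tmem119 and -0.142 to 0.052 for Trem2. For these reversals the cause was not tested. None of the other genes named changed direction in any fit tried. The biological coefficient of variation was 59.6%, and the size of difference that 4 libraries a group can detect is not reported here.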
